A study of Homo sapiens with 8 samples.

Results

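The comparison described here is between AML-OCI3 cultures kept with JIB-04 for 48 h and AML-OCI3 cultures kept with JIB-04 for 24 h. Its members are the 4 JIB-04 libraries of a series of 8, chosen by treatment label: 2 libraries at 24 h and 2 at 48 h, each from cells given 40 nM JIB-04 in RPMI with fetal bovine serum. The other 4 libraries came from cells given DMSO, the vehicle, with 2 at 24 h and 2 at 48 h, and served to show where the JIB-04 cultures differed. AML-OCI3 is a human acute myeloid leukaemia line, so all groups represent the same line in culture. The labels do not say that the replicates were separate cultures. P-values thus cover only the spread between the libraries at hand, and that spread may be technical. Cells collected at 48 h had also been in culture longer before harvest, and time under JIB-04, time in culture and harvest cannot be told apart within the JIB-04 libraries.

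JIB-04 blocks histone demethylases of the Jumonji (JmjC) family, enzymes that need iron and 2-oxoglutarate to remove methyl groups from histone lysines. Ferritin stores iron and the transferrin receptor imports it. NRF2 drives antioxidant and detoxifying enzymes, and the transcription factor ATF4 drives amino acid synthesis and stress genes when translation initiation is limited. Interferon-stimulated genes make antiviral proteins, and many of their promoters carry a DNA element built from repeats of GAAA.

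Gene expression was measured by RNA-seq of mRNA and is given as CPM, the count of a gene relative to the library's total after TMM scaling between libraries. The JIB-04 libraries held 18783093 to 21807056 counts, and before TMM scaling 1 count was worth 0.0459 to 0.0532 CPM. Mitochondrially encoded genes took 6.55% and 7.23% of counts at 24 h and 7.26% and 8.01% at 48 h. All 11 markers of leukaemic myeloid cells were detected, with a summed level of 809 to 856 CPM at 24 h and 811 to 889 CPM at 48 h. Markers of other lineages were low. Summed, 4 erythroid genes gave 6.69 to 7.46 CPM at 24 h and 7.91 to 9.79 at 48 h, and 6 megakaryocyte genes gave 4.77 to 5.25 and 4.41 to 5.44. In the same order of times, 4 B and plasma cell genes gave 0.71 to 0.829 and 1.18 to 1.25 CPM. Epithelial genes (4) gave 2.28 to 2.67 and 2.09 to 2.45, and fibroblast genes (6) gave 3.297 to 3.59 and 2.32 to 2.99. The T and NK list summed to 205 to 244 CPM at 24 h and 227 to 247 CPM at 48 h, almost all of it CD4, which monocytic cells also express. NKG7, of the same list, was at 11.004 and 8.0134 CPM at 24 h and 10.004 and 10.237 at 48 h with JIB-04. In DMSO NKG7 was at 5.4974 and 9.3814 CPM at 24 h and 4.7799 and 4.6753 at 48 h. CD8A, TRAC, GNLY and GZMB stayed under 0.2 CPM in every library. In each JIB-04 pair the replicates differed by the GC content of the genes. Spearman's rho across 15236 genes between GC content and the log2 difference of replicate 1 and replicate 2 was 0.71 at 24 h and 0.63 at 48 h. The SD of that log2 difference over 9078 genes with a mean of at least 10 CPM was 0.317 at 24 h and 0.255 at 48 h, and 0.153 and 0.141 with a trend on GC content removed from each library. This spread was present in DMSO at 24 h (0.407) and smaller in DMSO at 48 h (0.121). In DMSO at 24 h the replicates differed along GC content in the opposite direction, with a rho of -0.66.

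**Figure D1:**
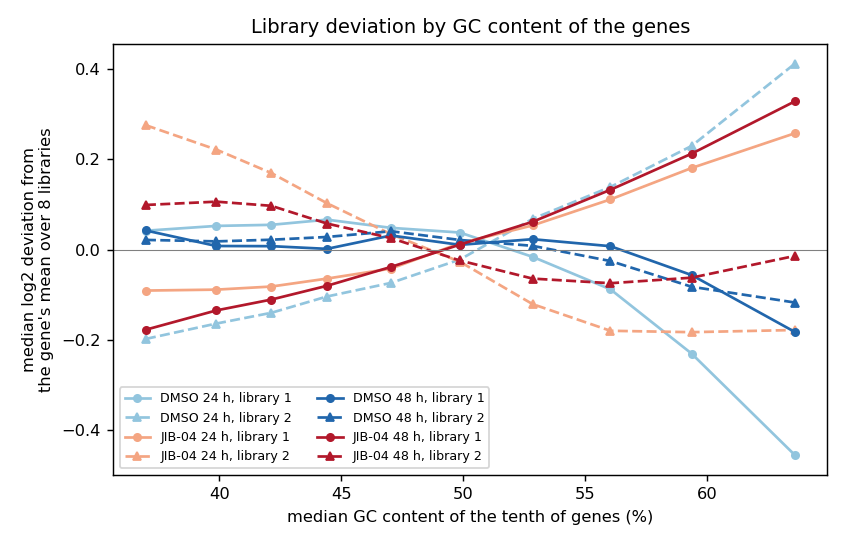
Median log2 deviation of each of the 8 libraries from the gene's mean over all libraries (vertical axis), for 10 equal groups of genes ordered by GC content (horizontal axis, median GC in percent). In the group with the highest GC content, replicate 1 of the JIB-04 groups lay at 0.26 (24 h) and 0.33 (48 h) and replicate 2 at -0.18 and -0.01.

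Between 24 h and 48 h with JIB-04, the genes that passed the test included 11 interferon-stimulated genes, the aldo-keto reductases AKR1C1 and AKR1C2, the ferritin heavy chain FTH1 and the secreted cytokine GDF15, all of them higher at 48 h. Few genes fell, among them TNF, the inflammatory cytokine. By edgeR's quasi-likelihood test with Benjamini-Hochberg adjustment over 15248 genes, 31 genes passed at an adjusted p under 0.05, which is 0.203% of those tested. Of these, 27 were higher at 48 h (0.177%) and 4 lower (0.0262%), and 29 differed by at least 2-fold. A further view is given by the unadjusted p, which was under 0.05 for 1307 genes, 675 higher and 632 lower, or 8.57% of those tested. The median log2 fold change of all tested genes was 0.01. The calls depended on which libraries were used. Without replicate 1 of JIB-04 at 24 h 6 genes passed, and without replicate 2 of that group 3. The count was 4 when either library of JIB-04 at 48 h or either library of DMSO at 48 h was left out, and 43 when either library of DMSO at 24 h was left out. The 4 JIB-04 libraries and the 2 of DMSO at 48 h are called the 6 influential libraries below. With the GC trend removed, 983 genes passed (6.45%), 541 higher (3.55%) and 442 lower (2.9%), and all 31 were among them.

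**Figure D2:**
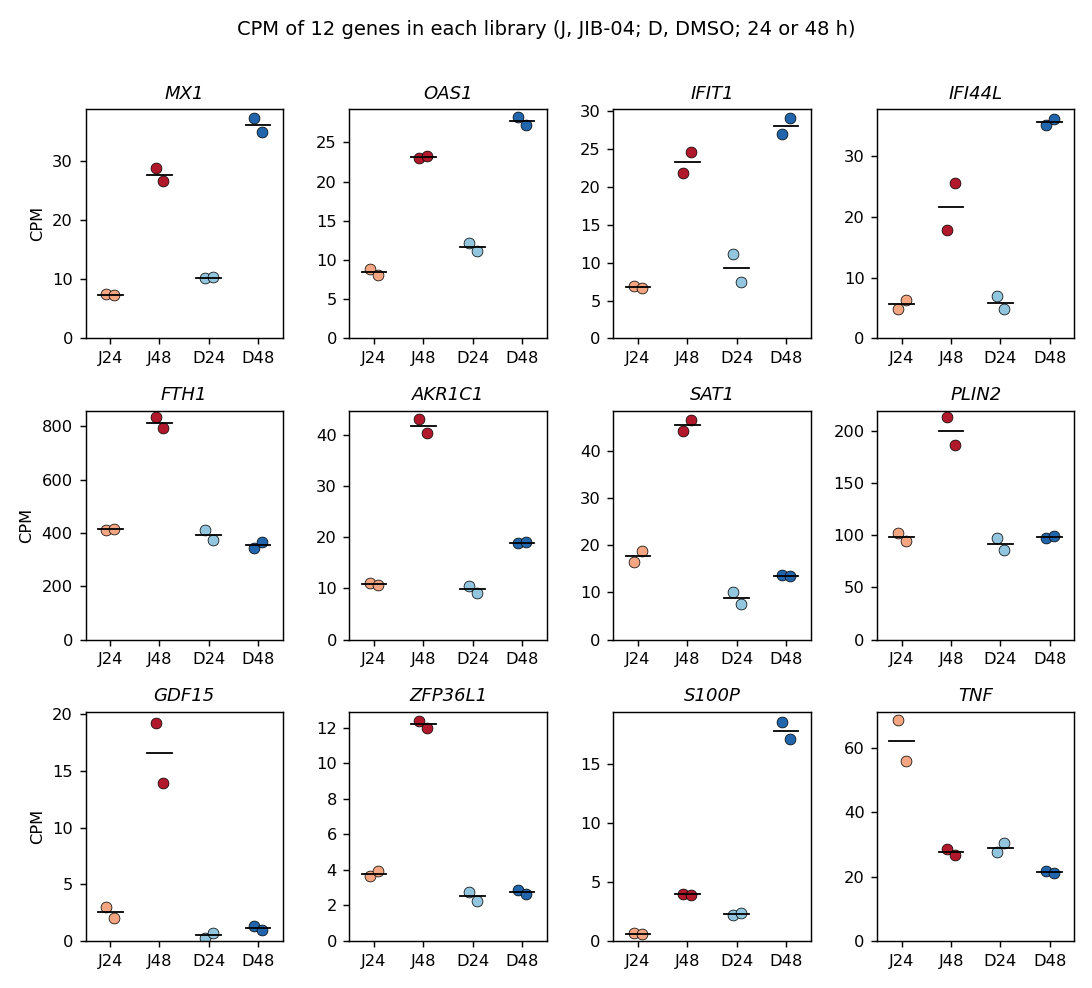
CPM (vertical axes, from 0) of 12 genes in each of the 8 libraries; J and D stand for JIB-04 and DMSO, 24 and 48 for hours, points for libraries and bars for the mean of 2. At 48 h with JIB-04, FTH1 stands at 834 and 792 CPM, above every other library, whereas MX1 is higher at 48 h in both treatments.

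Interferon-stimulated genes made up 11 of the 31 genes that passed, and all of them were higher at 48 h. All 46 tested genes of the list had a positive log2 fold change. Of them 11 passed the test, against 0.177% of all tested genes called higher, and none passed in the lower direction. In 42 of 46 both 48 h libraries lay above both 24 h libraries, against 16.6% of all tested genes. The median log2 fold change of the list was 0.83 and that of all tested genes 0.01. The genes that passed were MX1, OAS1, OAS2, OAS3, OASL, IFIT1, IFIT2, IFIT3, IFI6, IFI44 and IFI44L. To show what several of them share in sequence, RefSeq promoter windows of 4 genes are printed (GRCh38.p14, from 250 bases before to 50 after the annotated start, in the direction of the gene). They are printed with matches to a core of the interferon-stimulated response element in capitals. The motif is GAAA, any 2 bases and GAAA, which on the opposite strand reads TTTC, any 2 bases and TTTC. The windows lie at chr21:41420308-41420607 (MX1, plus strand), chr10:89392373-89392672 (IFIT1, plus strand), chr1:78620198-78620497 (IFI44L, plus strand) and chr1:27672143-27672442 (IFI6, minus strand).
MX1: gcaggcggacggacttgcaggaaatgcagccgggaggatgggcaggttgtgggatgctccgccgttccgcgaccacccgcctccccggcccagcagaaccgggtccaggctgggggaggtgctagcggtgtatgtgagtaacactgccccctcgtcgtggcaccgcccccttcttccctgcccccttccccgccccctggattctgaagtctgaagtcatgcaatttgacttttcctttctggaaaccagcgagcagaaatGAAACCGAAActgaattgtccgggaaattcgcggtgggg
IFIT1: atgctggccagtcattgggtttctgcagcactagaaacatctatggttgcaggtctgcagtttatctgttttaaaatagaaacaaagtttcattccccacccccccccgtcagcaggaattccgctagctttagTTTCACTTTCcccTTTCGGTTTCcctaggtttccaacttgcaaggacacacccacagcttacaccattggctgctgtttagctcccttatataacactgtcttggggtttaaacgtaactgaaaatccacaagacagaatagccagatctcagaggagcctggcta
IFI44L: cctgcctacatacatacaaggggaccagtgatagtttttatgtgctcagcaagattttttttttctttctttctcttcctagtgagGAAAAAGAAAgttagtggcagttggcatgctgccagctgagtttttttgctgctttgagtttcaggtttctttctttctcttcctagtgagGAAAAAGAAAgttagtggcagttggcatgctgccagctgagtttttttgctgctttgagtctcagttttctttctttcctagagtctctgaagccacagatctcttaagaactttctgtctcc
IFI6: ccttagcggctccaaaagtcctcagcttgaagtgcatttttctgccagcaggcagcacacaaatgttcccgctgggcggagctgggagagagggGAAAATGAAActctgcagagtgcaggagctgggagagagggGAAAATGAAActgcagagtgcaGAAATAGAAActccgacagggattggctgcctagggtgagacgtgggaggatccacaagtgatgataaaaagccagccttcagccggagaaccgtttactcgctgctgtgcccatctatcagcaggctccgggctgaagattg

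The MX1 window held 1 match, IFIT1 and IFI44L held 2 each and IFI6 held 3. MX1 has 3 windows, 2 of them with a match, and the most upstream is printed. Searched on both strands, with overlapping matches allowed, the motif was present in 3.574% of all 35116 windows, in 429 of 10598 tested genes with a window (4.048%), and in 26 of the 36 tested interferon genes that have one (72.22%). Among the genes that passed, 7 of the 8 interferon genes with a window held it and 2 of the 18 other genes did. OAS1 was the interferon gene without a match, which says only that these letters are not in its window. A match is a description of the sequence, and binding was not measured.

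MX1, a GTPase that blocks replication of RNA viruses (ENSG00000157601, chr21:41420304-41459214, plus strand, hg38), was at 7.505 and 7.303 CPM at 24 h and 28.8 and 26.7 at 48 h. Its log2 fold change of 1.90 ± 0.14 corresponds to 3.74-fold (adjusted p = 0.00346), and MX1 passed in each of the 18 alternative settings tried with log2 fold changes of 1.85 to 1.96. Both 48 h libraries lay far above both 24 h libraries. OAS1, which makes the 2-5A messenger that activates RNase L, was at 8.89 and 8.11 CPM at 24 h and 23 and 23.3 at 48 h. It rose by a log2 fold change of 1.44 ± 0.14 (adjusted p = 0.0117). IFIT1, which binds RNA with foreign 5′ ends, was at 6.86 and 6.59 CPM at 24 h and 21.9 and 24.6 at 48 h. The log2 fold change was 1.79 ± 0.20 (adjusted p = 0.0181). IFI44L, an interferon-induced gene of unsettled function, was at 4.88 and 6.39 CPM at 24 h and 17.9 and 25.5 at 48 h. Its log2 fold change was 1.95 ± 0.25 (adjusted p = 0.02399). For none of these genes did the libraries of 24 h and 48 h overlap. The other 7 had log2 fold changes from 1.27 (OAS2) to 2.14 (IFIT2), with adjusted p from 0.0117 to 0.0321 by edgeR's quasi-likelihood test. When any 1 of the 6 influential libraries was left out, MX1 was the 1 gene of the list that passed; with the GC trend removed 40 of 46 passed, all higher, against 3.55% of all tested genes.

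Interferon-stimulated genes also rose in the DMSO cultures over the same interval. There, MX1 was at 10.3 and 10.3 CPM at 24 h and 37.3 and 34.9 at 48 h, OAS1 at 12.1 and 11.1 CPM at 24 h and 28.2 and 27.3 at 48 h and IFI44L at 6.98 and 4.804 CPM at 24 h and 35.2 and 36.1 at 48 h. The list's median log2 fold change in DMSO was 0.88, with 17 of 46 genes passing, all higher, beside 0.426% of all tested genes called in that comparison and 0.262% called higher. At each time the MX1 and OAS1 levels were lower with JIB-04 than in DMSO. The difference between the 2 time changes was 0.09 ± 0.19 for MX1 (adjusted p = 0.949) and -0.65 ± 0.34 for IFI44L (adjusted p = 0.931). No gene of the list passed that test, and neither did any other tested gene. XAF1, an interferon-induced promoter of cell death, passed it with the GC trend removed, with the lower value in the JIB-04 cultures. It was the 1 gene of the 46 to do so, against 0.4% of all tested genes. Antigen presentation genes, which interferons also induce, gave a median log2 fold change of 0.32 over 19 tested genes in the JIB-04 cultures. None of them passed, against 0.203% of all tested genes. In 11 both 48 h libraries lay higher, against 16.6% of all tested genes. Of the 19, 9 passed with the GC trend removed, all higher, against 3.55% of all tested genes. HLA-B, a class I antigen-presenting chain whose reads can be shared with other HLA genes, was at 157 and 132 CPM at 24 h and 259 and 216 at 48 h (log2 fold change 0.72 ± 0.13, adjusted p = 0.125).

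**Figure D3:**
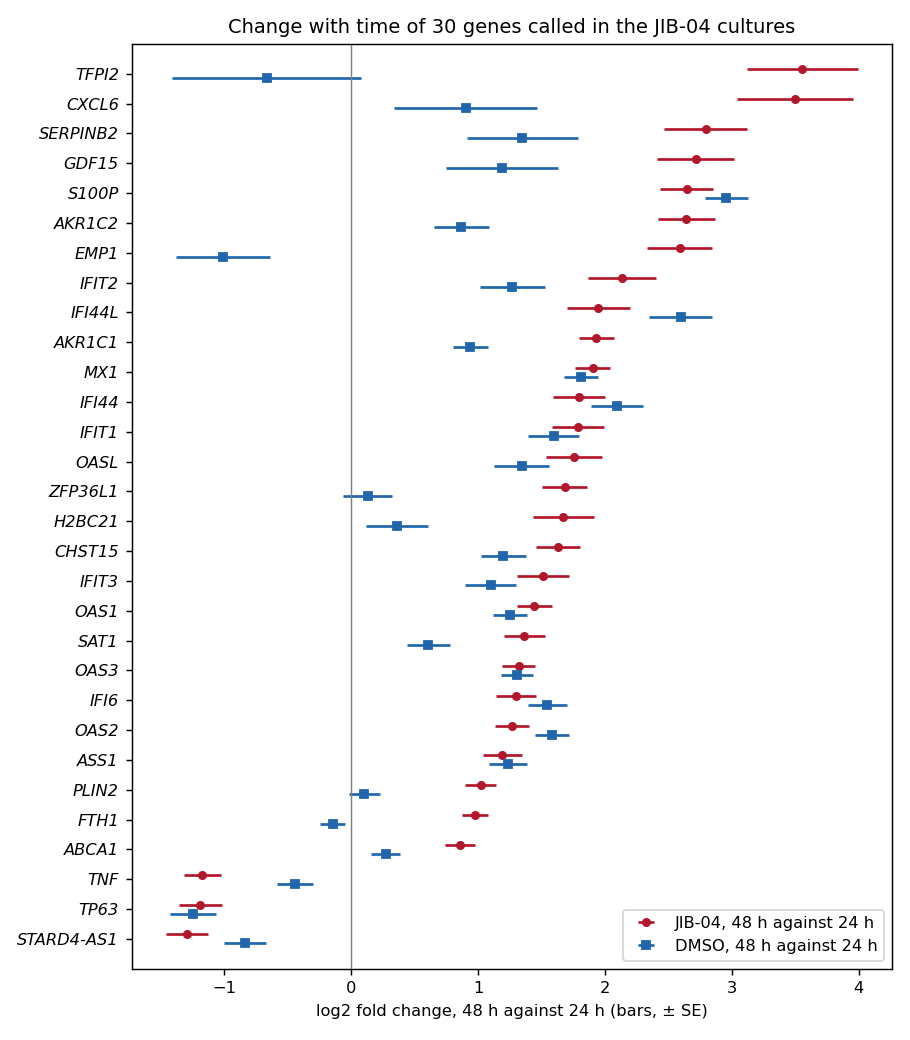
Log2 fold change from 24 h to 48 h (horizontal axis) of 30 of the 31 genes that passed in the JIB-04 cultures, in JIB-04 (circles) and in DMSO (squares), with bars of ± SE; ENSG00000264668 was left out because its fold change rests on libraries at or near 0. MX1 and ASS1 differ between the treatments by 0.09 and -0.05, while FTH1 is at 0.98 with JIB-04 and -0.15 in DMSO. In edgeR's quasi-likelihood test of the difference no gene passed, whereas some did with the GC trend removed.

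Of 31 tested NRF2 targets 3 rose, AKR1C1, AKR1C2 and FTH1, and none fell, against 0.177% of all tested genes called higher and 0.0262% lower. The list held 22 positive and 9 negative values, with a median of 0.13. After removal of the GC trend 8 of its genes passed, all higher, against 3.55% of all tested genes. AKR1C1, an aldo-keto reductase that reduces ketosteroids and reactive carbonyls, was at 11.1 and 10.7 CPM at 24 h and 43.1 and 40.4 at 48 h. Its log2 fold change was 1.93 ± 0.14, or 3.82-fold (adjusted p = 0.00346), and like MX1 it passed in each of the 18 alternatives. AKR1C2, a close relative beside it on chromosome 10, was at 2.12 and 3.195 CPM at 24 h and 17.8 and 15.4 at 48 h (log2 fold change 2.64 ± 0.22, adjusted p = 0.00591). The 24 h and 48 h libraries were well apart for both genes. AKR1C3, the third of the cluster, was at 1.98 and 1.52 CPM at 24 h and 4.95 and 4.597 at 48 h and did not pass (log2 fold change 1.44 ± 0.26, adjusted p = 0.118). These 3 genes are near-identical over much of their sequence, so the division of reads among them is uncertain. In DMSO, AKR1C1 was at 10.5 and 9.2 CPM at 24 h and 18.9 and 19.02 at 48 h and AKR1C2 at 3.52 and 3.44 CPM at 24 h and 6.84 and 5.901 at 48 h. The difference between the time changes was 0.99 ± 0.19 and 1.77 ± 0.31, with adjusted p of 0.754 and 0.563. It passed for both genes with the GC trend removed, at 1.09 and 1.94 (adjusted p of 0.0299 and 0.0235).

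FTH1, the ferritin heavy chain that oxidises and stores iron, was at 409.7 and 416 CPM at 24 h and 834 and 792 at 48 h. The level was 1.97-fold higher at 48 h (log2 fold change 0.98 ± 0.10, adjusted p = 0.0128), with replicates that differed by far less than the times. In DMSO, FTH1 was at 411 and 374 CPM at 24 h and 344 and 365 at 48 h, a log2 fold change of -0.15 ± 0.10. The difference between the time changes was 1.12 ± 0.14 and did not pass (unadjusted p = 3.28e-05, adjusted p = 0.167), whereas it did with the GC trend removed (1.13, adjusted p = 0.00239). FTH1 has many processed pseudogenes, which can take part of its reads. FTL, the ferritin light chain, was at 1473 and 1142 CPM at 24 h and 2227 and 1827 at 48 h (log2 fold change 0.63 ± 0.15, adjusted p = 0.246) and thus did not pass, although both 48 h libraries were higher. Per length, the mean levels of FTH1 and FTL were 817 and 2434 TPM, which corrects for transcript length, at 24 h and 1419 and 3324 TPM at 48 h. TFRC, the transferrin receptor that brings iron into the cell, was at 439 and 572 CPM at 24 h and 268 and 314 at 48 h. Both 48 h libraries lay below both 24 h libraries, and the log2 fold change of -0.79 ± 0.16 did not pass (adjusted p = 0.146). In DMSO, TFRC was at 221 and 186 CPM at 24 h and 189.9 and 198 at 48 h. Of 20 tested genes of iron uptake and storage, FTH1 alone passed, against 0.177% of all tested genes called higher, and the median was 0.04. After removal of the GC trend 2 of the 20 passed higher and 3 lower, against 3.55% and 2.9% of all tested genes.

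When any 1 of the 6 influential libraries was left out, FTH1 did not pass, whereas AKR1C1 and AKR1C2 did. With the GC trend removed FTH1, FTL and TFRC all passed, with log2 fold changes of 0.97, 0.57 and -0.73 (adjusted p of 7.05e-05, 0.00106 and 0.000158).

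Ferroptosis, death by iron-dependent oxidation of membrane lipids, is held back by the cystine importer SLC7A11 and the lipid peroxide reductase GPX4. Of 26 tested suppressor genes FTH1 passed, higher, and of 21 tested driver genes SAT1 passed, also higher. Of all tested genes 0.177% were called higher. The list medians were 0.03 and 0.10. After removal of the GC trend, 6 suppressor genes passed higher and 1 lower, and 3 driver genes passed higher and 3 lower. Of all tested genes 3.55% passed higher and 2.9% lower in that fit. SLC7A11 was at 46.1 and 57.8 CPM at 24 h and 54.2 and 59.5 at 48 h (log2 fold change 0.13 ± 0.15) and GPX4 at 185 and 143 CPM at 24 h and 217 and 176 at 48 h (0.26 ± 0.18). Neither passed, with adjusted p of 0.894 and 0.7802. SLC7A11 did pass with the GC trend removed, with a log2 fold change of 0.29 (adjusted p = 0.0314). In DMSO, SLC7A11 was at 99.5 and 81.2 CPM at 24 h and 118 and 119 at 48 h. SAT1, the acetyltransferase that breaks down polyamines, was at 16.5 and 18.8 CPM at 24 h and 44.2 and 46.6 at 48 h. It rose by a log2 fold change of 1.37 ± 0.16 (adjusted p = 0.0211), and its libraries at 24 h and 48 h were clearly separate, as in DMSO (10.2 and 7.66 CPM at 24 h and 13.6 and 13.5 at 48 h). SQSTM1, the autophagy adaptor p62 and an NRF2 target, was at 127 and 104 CPM at 24 h and 286 and 220.0 at 48 h (log2 fold change 1.13 ± 0.20, adjusted p = 0.117). It did not pass, though it did when either library of DMSO at 24 h was left out, whereas SAT1 did not pass when any 1 of the 6 influential libraries was left out.

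The ATF4 stress list lay on 1 side of 0, although GDF15 alone passed, against 0.177% of all tested genes called higher. All 33 tested genes had a positive log2 fold change, with a median of 0.41 beside 0.01 for all genes, and both 48 h libraries were higher in 25, against 16.6% of all tested genes. GDF15, a secreted stress cytokine, was at 2.99 and 2.03 CPM at 24 h and 19.2 and 13.9 at 48 h, which is 6.57-fold higher at 48 h (log2 fold change 2.72 ± 0.30, adjusted p = 0.0181). In DMSO it stood at 0.297 and 0.6798 CPM at 24 h and 1.28 and 0.999 at 48 h, below every JIB-04 library. PPP1R15A (GADD34), which directs the phosphatase that restores translation, was at 54.8 and 43.6 CPM at 24 h and 112 and 94.3 at 48 h and narrowly missed the threshold (log2 fold change 1.07 ± 0.16, adjusted p = 0.0512). In DMSO PPP1R15A was at 22.2 and 25.7 CPM at 24 h and 24.2 and 23.7 at 48 h. The difference between the time changes was 1.07 ± 0.22 (adjusted p = 0.754), and 0.92 with the GC trend removed (adjusted p = 0.0164). DDIT3 (CHOP), a transcription factor of prolonged stress, was at 42.1 and 37.02 CPM at 24 h and 63.7 and 60.4 at 48 h (log2 fold change 0.65 ± 0.13, adjusted p = 0.138), with no overlap between the times.

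Of the same list, the metabolic enzymes ASNS, PSAT1 and ALDH1L2 had lower levels in every JIB-04 library than in the DMSO libraries of the same time, and higher levels at 48 h than at 24 h. ASNS, asparagine synthetase, was at 174 and 197 CPM at 24 h and 281 and 349 at 48 h with JIB-04 and at 370.0 and 325 CPM at 24 h and 553 and 572 at 48 h in DMSO. PSAT1, an enzyme of serine synthesis, was at 274 and 292 CPM at 24 h and 368 and 387 at 48 h with JIB-04 and at 579 and 500.3 CPM at 24 h and 649 and 654 at 48 h in DMSO. ALDH1L2, a mitochondrial folate enzyme, was at 101 and 118 CPM at 24 h and 173 and 212 at 48 h. Their log2 fold changes with JIB-04 were 0.77 ± 0.14, 0.41 ± 0.11 and 0.81 ± 0.15, none of which passed (adjusted p of 0.117, 0.284 and 0.117). ATF4 itself was at 568 and 525 CPM at 24 h and 829 and 774 at 48 h (log2 fold change 0.55 ± 0.10, adjusted p = 0.117). The median of the list in DMSO was 0.32, and 22 of its genes had both 48 h libraries higher there, against 25.9% of all tested genes. With the GC trend removed 18 of the 33 genes passed in the JIB-04 cultures, all higher, against 3.55% of all tested genes. When any 1 of the 6 influential libraries was left out GDF15 did not pass, and PPP1R15A passed when either DMSO library of 24 h was left out.

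**Figure D4:**
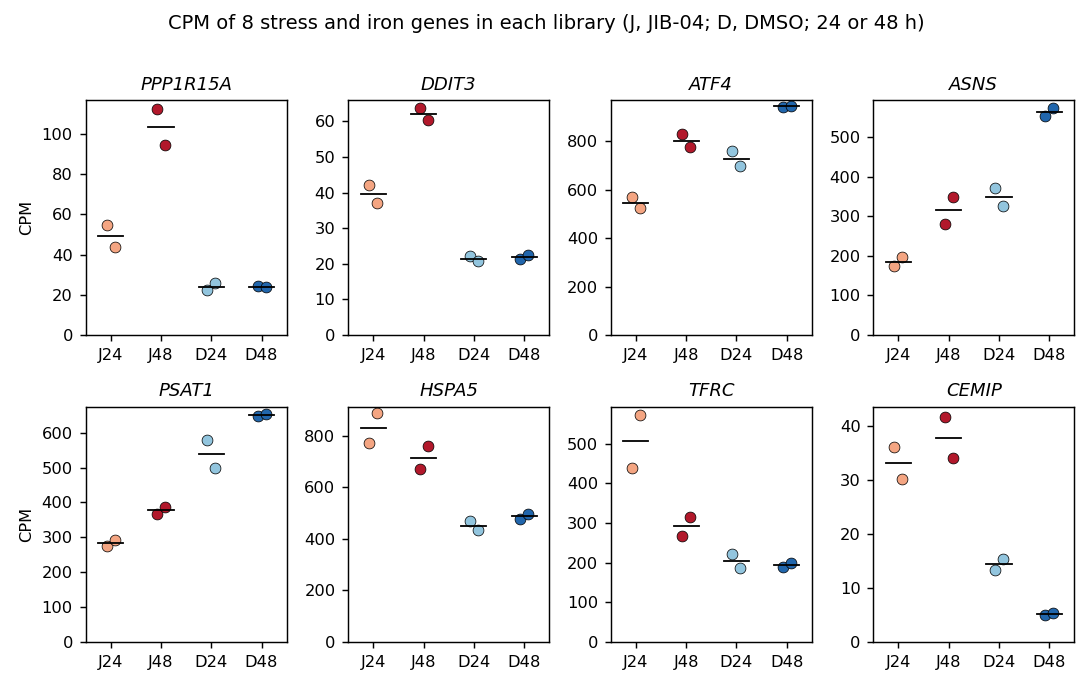
CPM (vertical axes, from 0) of 8 stress and iron genes in each of the 8 libraries; J and D stand for JIB-04 and DMSO, 24 and 48 for hours, points for libraries and bars for the mean of 2. PPP1R15A and DDIT3 are highest in the JIB-04 libraries of 48 h, whereas ASNS and PSAT1 are highest in DMSO at 48 h and TFRC is highest in JIB-04 at 24 h.

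The unfolded protein response of the endoplasmic reticulum did not share this direction. Of 26 tested genes none passed in either direction, against 0.203% of all tested genes. Their values were 7 positive and 19 negative, with a median of -0.08. CALR, PDIA4, HERPUD1 and SEL1L passed with the GC trend removed, all lower, against 2.9% of all tested genes. HSPA5 (BiP), the main chaperone of the endoplasmic reticulum, was at 772 and 887 CPM at 24 h and 669 and 760.4 at 48 h with a log2 fold change of -0.22 ± 0.11 and an adjusted p of 0.692; both 48 h libraries lay below both of 24 h, by a margin smaller than the difference between replicates. CALR, a calcium-binding chaperone, was at 1259 and 1094 CPM at 24 h and 979 and 852 at 48 h (log2 fold change -0.36 ± 0.11, adjusted p = 0.388). DNAJB9, an HSPA5 co-chaperone, was at 13.6 and 17.9 CPM at 24 h and 12.2 and 18.2 at 48 h, so that each time held 1 low and 1 high library. Amino acid transporters (16 tested), cytosolic aminoacyl-tRNA synthetases (20) and cytosolic heat shock genes (19) held no gene that passed, against 0.203% of all tested genes. Their medians were 0.04, 0.16 and 0.13. After removal of the GC trend 4, 5 and 2 of these genes passed, all higher, against 3.55% of all tested genes.

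PLIN2 and ABCA1 also rose. PLIN2, which coats lipid droplets, was at 102 and 94.8 CPM at 24 h and 213 and 187 at 48 h. It rose by a log2 fold change of 1.02 ± 0.12 (adjusted p = 0.0211). In DMSO its libraries overlapped between the times (97.2 and 85.6 CPM at 24 h and 96.9 and 99.7 at 48 h). ABCA1, which exports cholesterol to apolipoprotein, was at 29.7 and 31.4 CPM at 24 h and 55.9 and 54.8 at 48 h. The log2 fold change was 0.86 ± 0.12 (adjusted p = 0.0326), and its libraries at the 2 times were far apart beside the difference between replicates. Of 19 tested genes of fatty acid synthesis and lipid storage PLIN2 alone passed, against 0.177% of all tested genes called higher. The list's median was 0.27. After removal of the GC trend 7 of its genes passed higher and 1 lower, against 3.55% and 2.9% of all tested genes. SCD, the desaturase that makes oleate, was at 493 and 538 CPM at 24 h and 701 and 716 at 48 h (log2 fold change 0.46 ± 0.10, adjusted p = 0.228). Of 24 tested genes of cholesterol synthesis none passed, against 0.203% of all tested genes, while 20 values were positive and the median was 0.18. In the fit with the GC trend removed 5 of them passed, all higher, against 3.55% of all tested genes. INSIG1, which retains the sterol sensor, was at 88.4 and 106 CPM at 24 h and 144 and 149 at 48 h (adjusted p = 0.182). PLIN2 and ABCA1 did not pass when any 1 of the 6 influential libraries was left out.

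EMP1, SERPINB2, TFPI2 and CXCL6 rose from low counts at 24 h. EMP1, a membrane protein of the claudin superfamily, was at 0.875 and 1.07 CPM at 24 h and 5.93 and 5.78 at 48 h. It rose by a log2 fold change of 2.59 ± 0.26 (adjusted p = 0.0126). In DMSO it was at 0.495 and 0.6798 CPM at 24 h and 0.308 and 0.272 at 48 h. The difference between the time changes was 3.60 ± 0.45, with an unadjusted p of 3.25e-05 and an adjusted p of 0.167. It passed with the GC trend removed, at 3.71 (adjusted p = 0.0172). SERPINB2, an inhibitor of plasminogen activators, was at 0.691 and 0.609 CPM at 24 h and 5.27 and 3.84 at 48 h (log2 fold change 2.79 ± 0.33, adjusted p = 0.02003). The libraries of the 2 times were well separated for both genes. TFPI2, a protease inhibitor of the extracellular matrix, was at 0.184 and 0.152 CPM at 24 h and 2.01 and 2.09 at 48 h, and CXCL6, a chemokine for neutrophils, at 0.138 and 0.203 CPM at 24 h and 2.01 and 1.94 at 48 h. At 24 h these levels stand for only a few counts per library, so their fold changes (3.56 and 3.5 on the log2 scale, adjusted p of 0.02296 and 0.0281) are imprecise.

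S100P, a calcium-binding protein of myeloid and epithelial cells, was at 0.645 and 0.609 CPM at 24 h and 4.02 and 3.89 at 48 h with JIB-04, a log2 fold change of 2.64 ± 0.21 (adjusted p = 0.00489). In DMSO it was at 2.18 and 2.402 CPM at 24 h and 18.6 and 17.2 at 48 h, a log2 fold change of 2.96 ± 0.17, and the level in the JIB-04 cultures at 48 h was above that of DMSO at 24 h and far below that of DMSO at 48 h. CHST15, a sulfotransferase of chondroitin sulfate, was at 2.99 and 3.09 CPM at 24 h and 9.896 and 8.96 at 48 h (log2 fold change 1.63 ± 0.17, adjusted p = 0.0128). ASS1, which joins citrulline and aspartate in arginine synthesis, was at 221 and 162 CPM at 24 h and 462 and 413 at 48 h (log2 fold change 1.19 ± 0.15, adjusted p = 0.02399). ASS1 stood at 304 and 331 CPM at 24 h and 755 and 743 at 48 h in DMSO, and the difference between the time changes was -0.05 ± 0.21. ZFP36L1, which binds AU-rich elements and speeds mRNA decay, was at 3.64 and 3.96 CPM at 24 h and 12.4 and 11.99 at 48 h (log2 fold change 1.68 ± 0.18, adjusted p = 0.0128), against 2.77 and 2.27 CPM at 24 h and 2.88 and 2.63 at 48 h in DMSO. It was the 1 gene of 38 tested immediate early genes that passed, against 0.177% of all tested genes called higher, and the list's median was 0.12. After removal of the GC trend 3 of the 38 passed higher and 1 lower, against 3.55% and 2.9% of all tested genes. H2BC21, a histone H2B gene with polyadenylated transcripts and near-identical relatives, was at 2.12 and 1.62 CPM at 24 h and 6.198 and 5.78 at 48 h (log2 fold change 1.67 ± 0.24, adjusted p = 0.0476). It was the 1 gene of 12 tested replication-dependent histones that passed, against 0.177% of all tested genes called higher. Of the histone values 10 were positive and the median was 0.50. Only 12 of the 46 listed histone genes were tested, and several were low. H2BC11, for example, was at 0.230 and 0.152 CPM at 24 h and 0.489 and 0.284 at 48 h with JIB-04. The median thus rests in part on few counts per library. Of the genes in this and the preceding paragraph, S100P failed without replicate 2 of JIB-04 at 24 h and passed when any other library was left out. ASS1 passed without replicate 1 of JIB-04 at 24 h and failed when any other of the 6 influential libraries was left out, and the rest failed when any 1 of the 6 was left out.

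The 4 genes that fell were TNF, TP63, STARD4-AS1 and ENSG00000264668. TNF was at 68.9 and 55.8 CPM at 24 h and 28.6 and 26.7 at 48 h, which is 0.443 of its 24 h level (log2 fold change -1.17 ± 0.14, adjusted p = 0.02296). In DMSO TNF was at 27.6 and 30.5 CPM at 24 h and 21.7 and 21.02 at 48 h, so that the 24 h JIB-04 libraries were the high ones and the 48 h JIB-04 libraries were near the level of DMSO at 24 h. TP63, a p53-family transcription factor, was at 10.3 and 10.8 CPM at 24 h and 5.002 and 4.27 at 48 h (log2 fold change -1.19 ± 0.17, adjusted p = 0.0476), and in DMSO at 6.98 and 6.16 CPM at 24 h and 2.67 and 2.86 at 48 h. STARD4-AS1, a transcript antisense to a cholesterol transfer gene, was at 13.95 and 17.4 CPM at 24 h and 6.198 and 6.59 at 48 h (log2 fold change -1.29 ± 0.17, adjusted p = 0.0253). Reads of the 2 strands may not have been separated in counting, so its level is uncertain. ENSG00000264668 was at 1.704 and 2.08 CPM at 24 h and 0.0544 and 0 at 48 h (adjusted p = 0.0367), which at 48 h is 1 count in 1 library and 0 in the other. In DMSO the order was the opposite, 0 and 0 CPM at 24 h and 2.004 and 1.27 at 48 h. None of the 4 passed when any 1 of the 6 influential libraries was left out.

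Of 30 tested NF-kB inflammatory genes TNF was the 1 that passed, against 0.0262% of all tested genes called lower. The list's median was 0.20. After removal of the GC trend 3 of its genes passed higher and 2 lower, against 3.55% and 2.9% of all tested genes. IL1B, an inflammatory cytokine of monocytes, was at 162 and 174 CPM at 24 h and 133 and 126 at 48 h (log2 fold change -0.38 ± 0.11, adjusted p = 0.365). The lower direction was completed by genes that did not pass. EPAS1 (HIF-2α), a hypoxia-regulated transcription factor, was at 26.7 and 24.2 CPM at 24 h and 13.4 and 11.8 at 48 h (log2 fold change -1.02 ± 0.15, adjusted p = 0.0512). IL7R, the interleukin-7 receptor chain, was at 38.4 and 48.2 CPM at 24 h and 19.4 and 21.8 at 48 h (-1.07 ± 0.16, adjusted p = 0.0583). Both genes had both 48 h libraries below both 24 h libraries, as they did in DMSO, and both passed when either DMSO library of 24 h was left out. UNC5C, a netrin receptor, was at 142 and 161 CPM at 24 h and 89.8 and 97.9 at 48 h with JIB-04 (-0.69 ± 0.12, adjusted p = 0.0997) and at 113 and 106 CPM at 24 h and 103 and 110.1 at 48 h in DMSO. ANXA1, ZNF536, CXCR5 and JAG1 had log2 fold changes of -0.85, -1.57, -2.13 and -0.59, with adjusted p from 0.0604 to 0.113.

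Lists without a called gene differed in how evenly their genes were placed. All 56 tested cytosolic ribosomal protein genes had a positive log2 fold change, with a median of 0.37, a range of 0.15 to 0.53 and both 48 h libraries higher in 46, against 16.6% of all tested genes. RPL12, of the large subunit, was at 1409.5 and 1266 CPM at 24 h and 2043 and 1822 at 48 h (0.53 ± 0.10, adjusted p = 0.1299). In DMSO the median was 0.28. Of 13 mitochondrially encoded genes 12 had a positive value, with a median of 0.33 in the JIB-04 cultures and -0.02 in DMSO. None of them passed the test of the difference between the time changes, which no tested gene passed. With the GC trend removed 7 did, all with the higher time change in the JIB-04 cultures, against 0.708% of all tested genes. MT-ND5, a subunit of respiratory complex I, was at 2313 and 2668 CPM at 24 h and 3482 and 4002 at 48 h with JIB-04 (0.59 ± 0.12, adjusted p = 0.1804) and at 3509 and 3097 CPM at 24 h and 3244 and 3712 at 48 h in DMSO, so that the JIB-04 libraries of 24 h were the lowest of the 8. MT-ND2, of the same complex, was at 2677 and 3131 CPM at 24 h and 3760.0 and 4425 at 48 h. The 53 nuclear-encoded genes of oxidative phosphorylation had a median of 0.06. With the GC trend removed, 28 ribosomal protein genes and 9 mitochondrially encoded genes passed, all higher, against 3.55% of all tested genes. In bulk RNA, fewer cells of a kind and less RNA per cell cannot be told apart.

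No cell cycle gene passed in the JIB-04 cultures, against 0.203% of all tested genes. When the GC trend was removed 2 G1/S and 5 G2/M genes passed, all lower, against 2.9% of all tested genes. Of 50 tested G1/S and replication genes none passed, 20 values were positive and 30 negative, and the median was -0.04, against -0.40 in DMSO. Of 43 tested G2/M and mitosis genes none passed, with 5 positive and 38 negative values and a median of -0.16, against -0.38 in DMSO. Both DMSO libraries of 48 h lay below both of 24 h in 45 of the 50 G1/S genes and 40 of the 43 G2/M genes, against 18.7% of all tested genes. In the JIB-04 cultures this held for 8 and 14, against 16% of all tested genes. TYMS, which makes thymidylate, was at 339.9 and 363 CPM at 24 h and 289 and 309.7 at 48 h with JIB-04 and at 403 and 375 CPM at 24 h and 281 and 291 at 48 h in DMSO. The difference was 0.21 ± 0.14 (adjusted p = 0.931). ASPM, a spindle pole protein, was at 129 and 169 CPM at 24 h and 102 and 113 at 48 h with JIB-04 (-0.47 ± 0.16, adjusted p = 0.437). No gene of either list passed the test of the difference, which no tested gene passed. With the GC trend removed, 10 G1/S and 11 G2/M genes did, all with the higher time change in the JIB-04 cultures, against 0.708% of all tested genes. A higher time change does not mean a higher level. MCM3 was at 302 and 279 CPM at 24 h and 309 and 282 at 48 h with JIB-04. In DMSO it was at 406 and 395 CPM at 24 h and 296 and 294 at 48 h. For CDK1 the 24 h levels overlapped, at 91.2 and 116 CPM with JIB-04 and 106 and 95.7 in DMSO.

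**Figure D5:**
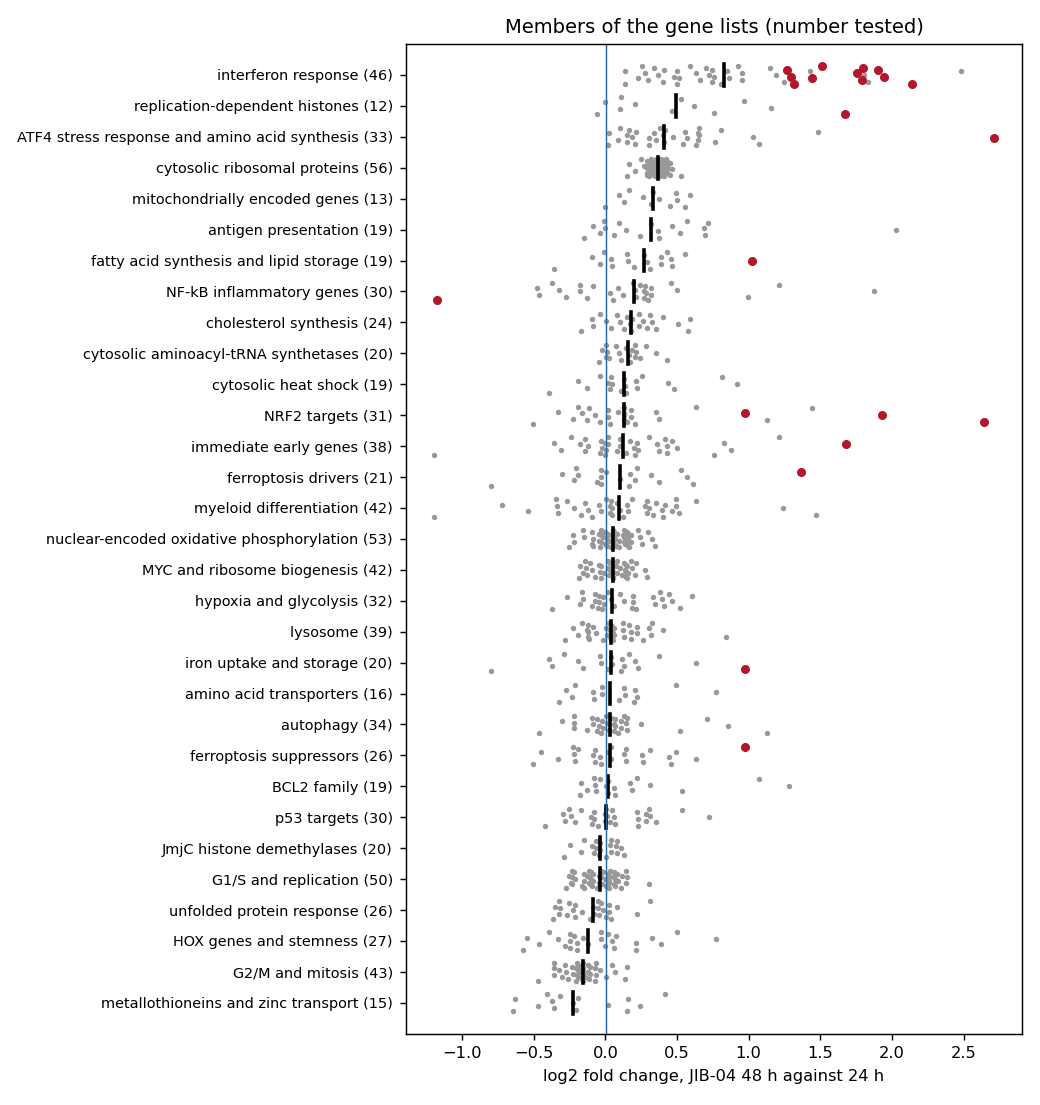
Log2 fold change from 24 h to 48 h in the JIB-04 cultures (horizontal axis) of the tested members of 31 gene lists (rows, number tested in brackets); large points passed the test, bars mark list medians and the vertical line the median of all tested genes, 0.01. The interferon list stands farthest to the right, and the ribosomal protein genes form the narrowest group.

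By edgeR's quasi-likelihood test before removal of the GC trend, neither the demethylases that JIB-04 inhibits nor the BCL2 family held a gene that passed. Of all tested genes 0.203% passed. DESeq2, which called more genes in all than edgeR, called 1 gene of the BCL2 family, higher at 48 h. Of 20 tested JmjC demethylases the median log2 fold change was -0.04. KDM4A was at 135 and 129 CPM at 24 h and 140.3 and 130.05 at 48 h, KDM5A at 153 and 184 CPM at 24 h and 154 and 173 at 48 h and KDM6B at 44.5 and 33.8 CPM at 24 h and 41.8 and 34.6 at 48 h, in each case with libraries that overlapped between the times. KDM2B had a log2 fold change of -0.24 ± 0.15 (adjusted p = 0.738). Over 19 tested BCL2 family genes the median was 0.02. BCL2, the survival protein that venetoclax blocks, was at 239 and 262 CPM at 24 h and 225 and 250.4 at 48 h with JIB-04 and at 234 and 216 CPM at 24 h and 300.2 and 283 at 48 h in DMSO. MCL1, a survival protein of the same family, was at 219 and 269 CPM at 24 h and 225 and 269 at 48 h, again 1 low and 1 high library at each time. BCL2L11 (BIM), which promotes cell death, was at 52.99 and 57.4 CPM at 24 h and 69.2 and 68.01 at 48 h (0.31 ± 0.12, adjusted p = 0.509), and BCL2A1, a survival gene of leukocytes, at 5.48 and 6.59 CPM at 24 h and 12.2 and 17.01 at 48 h (1.28 ± 0.24, adjusted p = 0.1297). For the latter 2 genes both 48 h libraries were higher, and neither gene passed. BCL2A1 and BCL2L11 passed with the GC trend removed, with log2 fold changes of 1.35 and 0.32 (adjusted p of 0.00162 and 0.0341). KDM2B also passed then, at -0.32 (adjusted p = 0.0291).

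The other 8 lists held no gene that passed, against 0.203% of all tested genes. Their medians were 0.01 for 30 p53 targets, 0.05 for 32 hypoxia and glycolysis genes, 0.05 for 42 genes of MYC and ribosome biogenesis, 0.04 for 39 lysosome genes, 0.03 for 34 autophagy genes, 0.09 for 42 myeloid differentiation genes, -0.12 for 27 HOX and stemness genes and -0.23 for 15 genes of metallothioneins and zinc transport. With the GC trend removed, 7 hypoxia and glycolysis, 6 myeloid differentiation, 4 lysosome and 3 autophagy genes passed higher, against 3.55% of all tested genes. The p53 targets gave 2, MYC and ribosome biogenesis 1, metallothioneins and zinc transport 1 and the HOX list 0. Lower passed 3 HOX and stemness genes and 2 each of p53 targets, autophagy and metallothioneins, against 2.9% of all tested genes. Hypoxia and myeloid differentiation gave 1 each, and the lysosome and MYC lists 0. CTSL, a lysosomal protease, was at 21.04 and 24.04 CPM at 24 h and 40.7 and 40 at 48 h (0.84 ± 0.17, adjusted p = 0.152) and at 21.5 and 15.95 CPM at 24 h and 18.6 and 19.9 at 48 h in DMSO. PBX3, a HOX cofactor, was at 60.96 and 76.9 CPM at 24 h and 46.4 and 47.9 at 48 h (-0.55 ± 0.14, adjusted p = 0.262) and at 46.2 and 44.9 CPM at 24 h and 49.8 and 46.8 at 48 h in DMSO.

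The DMSO cultures share no library with the JIB-04 cultures, but both comparisons came from the same fit, with a shared estimate of each gene's spread. The JIB-04 cultures had fewer genes past the threshold, 31 against 65 in DMSO (0.426%). Of the 65, 40 were higher (0.262%) and 25 lower (0.164%). This difference in counts was not itself tested. Of the 27 genes that rose with JIB-04, 24 had a positive log2 fold change in DMSO, and of the 4 that fell, 3 had a negative one. The median log2 fold change of all tested genes in DMSO was 0.0067, so positive and negative values were about equally common there. Called in both were 15 genes, which is 48.4% of the JIB-04 calls and 23.1% of the DMSO calls. Of these, 14 moved the same way, and the exception was ENSG00000264668. Because the spread was shared, the 2 sets of calls are not independent. Across the 15248 tested genes, Spearman's rho between the 2 time changes was 0.21, and 0.32 with the GC trend removed. Genes are not independent replicates, and the time changes themselves were related to GC content, with a rho of 0.27 with JIB-04 and -0.26 in DMSO over 15236 genes.

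The test of the difference between the time changes called 0 genes with edgeR's quasi-likelihood test (lowest adjusted p = 0.0842), while 798 genes had an unadjusted p under 0.05 (5.23%; 331 with the higher and 467 with the lower value in the JIB-04 cultures). DESeq2 called 12 and limma-voom 1 on the same libraries, and removal of the GC trend gave 169 (1.11%), of which 108 were higher (0.708%) and 61 lower (0.4%). Whether a gene passed thus depended on the method and on that removal. Of the 31 genes called in the JIB-04 cultures none passed edgeR's quasi-likelihood test of the difference, and 10 passed with the GC trend removed. AKR1C1, AKR1C2, FTH1, EMP1, ZFP36L1, PLIN2, SAT1 and ABCA1 had the higher value in the JIB-04 cultures, and TNF and ENSG00000264668 the lower one. Their adjusted p ran from 0.00239 to 0.0299. Besides FTH1, the genes with the smallest unadjusted p included CEMIP and LDLRAD4. CEMIP, which degrades hyaluronan, was at 36.1 and 30.2 CPM at 24 h and 41.7 and 34.1 at 48 h with JIB-04 and at 13.3 and 15.4 CPM at 24 h and 5.04 and 5.402 at 48 h in DMSO. The time changes differed by 1.65 ± 0.24 (adjusted p = 0.345), and by 1.60 with the GC trend removed (adjusted p = 0.00584). LDLRAD4, which dampens TGF-beta signalling, was at 20.9 and 24.5 CPM at 24 h and 15.01 and 11.8 at 48 h with JIB-04 and at 8.62 and 10.2 CPM at 24 h and 16.5 and 15.2 at 48 h in DMSO. The difference was -1.51 ± 0.25 (adjusted p = 0.554), and -1.44 with the GC trend removed (adjusted p = 0.0289). For CEMIP it was the DMSO libraries of 48 h that stood low, and for LDLRAD4 the 48 h libraries stood lower than those of 24 h with JIB-04 and higher in DMSO.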

How the data were processed

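Per the labels' protocols, RNA of AML-OCI3 cells was isolated with TRIzol and 700 ng of total RNA went into a stranded mRNA kit. Per the submitters' processing notes, cutadapt, STAR 2.6.1, RSEM and hg38 were used; a strand setting in counting was not found in the labels. The authors deposited 1 table per time with an expected count per gene and library, per the file headers, and a TPM value computed per library, also per the file headers; TPM entered no test. The tables' own comparisons of JIB-04 with DMSO were not used, and 0 columns of per-library values were left unmapped.

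Expected counts were rounded to whole numbers, and the 24077 genes in both tables were joined by Ensembl ID, leaving out 0.00581% of counts. Names came from a gene name table, and coordinates and GC content from GENCODE 29 on hg38. Genes were filtered with filterByExpr in edgeR 4.0.16 under R 4.3.3 (minimum count 10, minimum total 15), which kept 15248. All 8 libraries were fitted with TMM scaling and 1 mean per group (4 residual degrees of freedom); two-sided quasi-likelihood F tests gave log2 fold changes ± SE and p-values, adjusted over the 15248 genes after Benjamini and Hochberg and called under 0.05. Other values are per library; counting error sets the precision of low levels. The fit was tested on simulated data. Alternatives were other scaling, no filter, DESeq2 1.42.0, limma-voom (limma 3.58.1), the JIB-04 libraries alone, each library left out, a replicate block, a GC trend (lowess, span 0.3) removed, and a join of all genes.

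Members and lists were chosen with earlier results of these data known. Genes were named as the 12 largest rises and falls whose times do not overlap and whose mean log2 CPM is 1 or more, completed by the smallest unadjusted p; up to 5 genes per list; the 8 smallest p of the difference; and a set of genes of the treatment and question. Not all of these are printed, and other called genes were added.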

Additional observations from a re-analysis of the deposited data

How the results depend on the processing

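The number of genes called for JIB-04 at 48 h against 24 h was 52 without the filter on low counts, 101 with DESeq2, 983 with the GC trend removed, and 3 to 43 over the fits that leave out 1 library; it was within 1.5 times of 31 with other scaling (31), limma-voom (32), the JIB-04 libraries alone (39) and all genes of either table (31). For DMSO the count was 113, 226 and 2064 under the first 3 of these, and 1 to 59 over the leave-one-out fits. For the difference between the time changes it was 1, 12 and 169, 1 with limma-voom, and 0 to 1 over the leave-one-out fits. The JIB-04 groups share replicate numbers, and the labels do not say that a number marks a shared culture. The log2 deviations of same-numbered libraries of 24 h and 48 h correlated at 0.85 with JIB-04 and 0.11 in DMSO, over 2 numbers only. A replicate block over all 8 libraries left 3 calls for JIB-04 (MX1, AKR1C1 and S100P) and 2 for DMSO; the block with the GC trend removed gave 796, 1791 and 83 for the difference; a block in the 4 JIB-04 libraries alone, with 1 residual degree of freedom, gave 2994, which is not a reliable count. The cause of these shifts was not tested. Over 74 genes and 18 alternatives (1332 comparisons) 984 kept their direction and side of the threshold, 193 lost it, 141 gained it and 14 changed sign, all in 6 genes that did not pass. With a library left out, log2 fold changes ran from -0.0272 to 0.301 for SLC7A11, -0.128 to 0.174 for MCL1, -0.369 to 0.21 for DNAJB9, -0.0222 to 0.0893 for KDM4A, -0.173 to 0.0919 for KDM5A and -0.223 to 0.172 for KDM6B. With the GC trend removed, they were 0.0216 for DNAJB9 (0.0163 with the block) and 1.66e-05 for KDM5A (7.78e-05 with the block). Depth limits genes such as TFPI2 and CXCL6, with a few counts per library at 24 h.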
